A study of Mus musculus with 2 samples.

Results

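The cells described here are the Sftpc-low epithelial cells of lung organoids that were grown with IL-1β. They are 96 of the 2380 epithelial cell barcodes of the IL-1β library (4.03%, 95% exact Clopper-Pearson interval 3.28 to 4.90), which held 3066 barcodes, and of the 5167 barcodes of both libraries. Each was chosen on its counts of unique molecular identifiers (UMIs, 1 per captured RNA molecule). The summed UMIs of 5 epithelial genes (Epcam, Cdh1, Cldn3, Cldn7 and Krt18) exceeded those of 4 stromal genes (Col1a2, Col3a1, Sparc and Dcn). The AT1 genes Hopx, Rtkn2 and Akap5 together had at most 2 UMIs, Sftpc made up less than 1% of the cell's UMIs and mitochondrial genes less than 10%. These genes therefore describe the selection and are not results.

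The organoids came from alveolar type 2 (AT2) cells of C57BL/6 mice that carried Sftpc-CreERT2 and R26R-tdTomato and had been given tamoxifen, so that the Sftpc promoter had driven the Cre that labeled the starting cells. Lineage-labeled cells were grown with cultured lung stromal cells, with PBS (control) or with IL-1β, and were dissociated for droplet sequencing without a further sort. The time in culture is given as 2 weeks in the series description and as longer elsewhere, and the methods give a mouse age range for most of the experiments without saying whether these cultures are among them. There was 1 library per condition, so no difference between conditions or cells could be tested against replicates. All intervals below are 95% intervals that cover counting error only. The IL-1β library had a median of 11496.5 UMIs per barcode and the control library 14613, and 11 barcode sequences occurred in both.

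Surfactant protein C, encoded by Sftpc, is the defining product of AT2 cells, which make and recycle surfactant and act as progenitors of the thin AT1 cells of gas exchange. Club and goblet cells of the airways secrete other products, among them secretoglobins, the BPI-fold protein Bpifa1, trefoil factors such as Tff2, and mucins. Microfold (M) cells are rare epithelial cells that sample antigen over lymphoid tissue. They depend on the Ets-family transcription factor Spib and release Ccl20, a chemokine that attracts lymphocytes and dendritic cells bearing the receptor Ccr6. Damage-associated transient progenitors (DATPs) are an intermediate between AT2 and AT1 cells marked by Cldn4, Krt8, Ndrg1, Sprr1a and AW112010.

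The name secretory-like was checked against 5 marker genes, Tff2, Scgb3a2, Bpifa1, Ccl20 and Spib. Ccl20 and Spib are genes of M cells, so the name rests on Tff2, Scgb3a2 and Bpifa1, and it held for few of the cells. Scgb3a2 (a secretoglobin) and Bpifa1 together reached 5 UMIs in 4 cells and Ccl20 and Spib in 25. Tff2 was detected in 15 of 96 cells, Ccl20 in 34 and Spib in 20. The cells with neither pair held at most 4 UMIs of any of the 5 genes, and the whole group is therefore called Sftpc-low cells below. It was split by a rule that used the 4 genes themselves. Scgb3a2/Bpifa1 cells had at least 5 UMIs of that pair and more of it than of the other, which held for 4 cells (4.17%, 1.15 to 10.3). Ccl20/Spib cells, defined likewise, numbered 23 (24.0%, 15.8 to 33.7). The remaining 69 cells (71.9%, 61.8 to 80.6) carried neither pair.

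The promoters of the split genes are shown because these genes define the groups and the cultures had received IL-1β, a cytokine that activates the transcription factor NF-κB. Each sequence is the RefSeq window of 300 bases, 250 before and 50 after the start of transcription, on build GRCm38.p6, printed 5′ to 3′ on the strand of the gene, with matches to the NF-κB consensus in capitals. Windows were found for 3 genes and not for Scgb3a2 and Tff2.
Ccl20: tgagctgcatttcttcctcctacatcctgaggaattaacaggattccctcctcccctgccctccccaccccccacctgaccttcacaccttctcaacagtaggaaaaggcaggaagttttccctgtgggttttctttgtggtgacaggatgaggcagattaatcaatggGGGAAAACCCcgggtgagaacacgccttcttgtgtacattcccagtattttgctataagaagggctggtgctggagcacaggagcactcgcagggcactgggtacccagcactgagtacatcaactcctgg
Spib: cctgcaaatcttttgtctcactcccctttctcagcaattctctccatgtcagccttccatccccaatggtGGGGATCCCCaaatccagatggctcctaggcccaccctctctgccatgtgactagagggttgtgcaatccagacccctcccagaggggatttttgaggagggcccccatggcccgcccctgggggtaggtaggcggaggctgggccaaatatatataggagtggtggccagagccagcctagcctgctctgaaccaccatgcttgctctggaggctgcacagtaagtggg
Bpifa1: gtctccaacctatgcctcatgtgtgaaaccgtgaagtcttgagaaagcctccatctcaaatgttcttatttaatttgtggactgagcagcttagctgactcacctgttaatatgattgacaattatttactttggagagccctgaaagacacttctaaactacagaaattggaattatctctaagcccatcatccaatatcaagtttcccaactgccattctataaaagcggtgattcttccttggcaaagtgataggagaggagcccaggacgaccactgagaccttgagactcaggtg
The Ccl20 window lies at chr1:83116516-83116815 on the plus strand and holds 1 match, at bases 170 to 179, 81 bases before the start. The Spib window, chr7:44532022-44532321 on the minus strand, holds 1 stretch that matches on both strands, at bases 71 to 80, 180 bases before the start. No match was found in the Bpifa1 window, chr2:154142630-154142929 on the plus strand. The NF-κB consensus occurs on either strand in 5.32% of 32851 such promoters. The Ets core GGAAGT, the kind of site that Spib binds, occurs in the Ccl20 window alone among the 3 and in 23.8% of all promoters. The AP-1 site TGACTCA occurs in the Bpifa1 window, at bases 96 to 102, and in 5.2% of all promoters. These matches are letters in a window and say nothing of binding. The genes span bases 83116766 to 83119167 of chromosome 1 (Ccl20), 44525993 to 44532071 of chromosome 7 (Spib) and 154142880 to 154149219 of chromosome 2 (Bpifa1), and Tff2 spans bases 31141049 to 31144282 of chromosome 17, in the GENCODE M21 annotation of GRCm38.

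Sftpc, on which the cells were chosen, made up 0.207% of UMIs in the lowest Sftpc-low cell, 0.433% in the median one and 0.976% in the highest. The comparison cells are the 1843 Sftpc-high cells of the same library, chosen by the same rule but with Sftpc at 1% or more. Their values ran from 1.04% to 19.5% with a median of 6.89%. The 3 highest values inside the limit were 0.943%, 0.971% and 0.976% and the 3 lowest outside it were 1.04%, 1.05% and 1.08%, so the cells ran up to the limit on both sides of it. Stromal barcodes, which should not make Sftpc, had a median of 0.405% and reached 13.1%. The part of free RNA and of doublets in these values was not tested. Of the Sftpc-low cells 40 of 96 lay at or below the stromal median, among them all 4 Scgb3a2/Bpifa1 cells and 14 of the 23 Ccl20/Spib cells. In the plot of Sftpc shares the Sftpc-low cells overlapped the stromal barcodes, while their separation from the Sftpc-high cells is set by the rule.

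**Figure D1:**
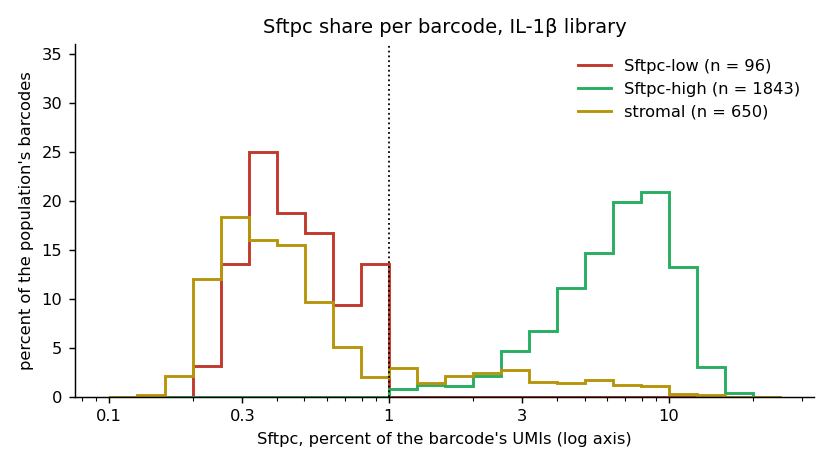
Share of UMIs from Sftpc (x axis, percent, log scale) against the percent of barcodes in each of 3 populations of the IL-1β library (y axis), with the limit of 1% dotted. The 96 Sftpc-low cells (median 0.433%) lie over the stromal barcodes (median 0.405%), and the Sftpc-high cells have a median of 6.89%.

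In the control library the same rule found 6 of 1029 epithelial barcodes (0.583%, 0.214 to 1.26). The interval did not overlap that of the IL-1β library, but each condition had 1 library, so what IL-1β did and how these cultures differed otherwise cannot be told apart. None of the 6 had a UMI of Scgb3a2, Bpifa1, Ccl20, Spib, Tff2 or Scgb3a1. One of them carried 55 UMIs of the 6 immune marker genes and 2 of the epithelial genes. By contrast, the highest immune count in any of the 96 IL-1β cells was 4. Over all 1029 control epithelial barcodes Tff2, Scgb3a1 and Reg3g had 0 UMIs, Scgb3a2 had 5, Bpifa1 4, Ccl20 19 and Spib 9. The club cell gene Scgb1a1 did occur there, with 4324 UMIs.

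The sum of Scgb3a2 and Bpifa1 was 0 in 87 of the 96 cells and 2 to 100 UMIs in none, so the limit of 5 did not cut through a continuum. The sum of Ccl20 and Spib was graded. It was 0 in 57 cells, 1 to 4 in 14, 5 to 9 in 4 Ccl20/Spib cells and 10 or more in the other 19. Both pairs reached 5 UMIs in 2 cells, which were 2 of the 4 Scgb3a2/Bpifa1 cells, with 54 and 23 UMIs of Ccl20. The plot of both sums shows the 4 cells apart along one axis and the 23 along the other.

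**Figure D2:**
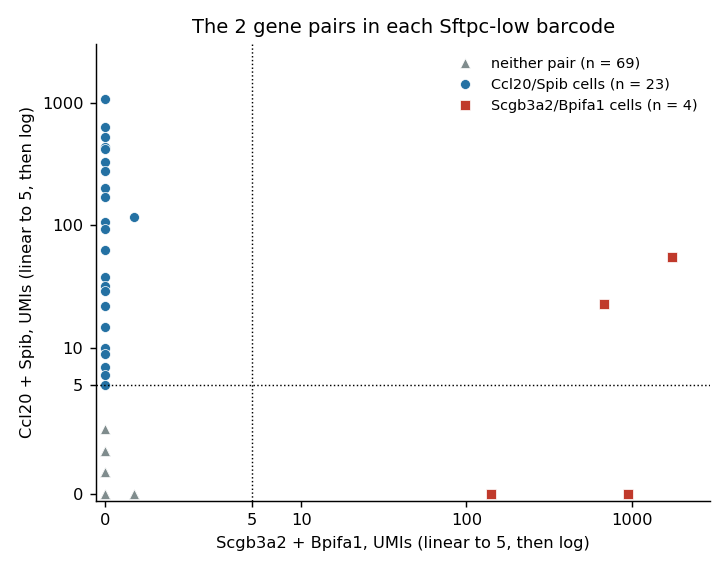
UMIs of Scgb3a2 plus Bpifa1 (x axis) and of Ccl20 plus Spib (y axis) in each of the 96 Sftpc-low cells, linear to 5 and logarithmic above, with the limits of 5 dotted. The 4 Scgb3a2/Bpifa1 cells stand apart on the right, 22 of the 23 Ccl20/Spib cells lie at 0 of the first pair, and many of the 69 other cells share a point at or near the origin.

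The 4 Scgb3a2/Bpifa1 cells had 20600, 21244, 25241 and 20776 UMIs, a median of 21010 against 11553 in the Sftpc-high cells. Their median mitochondrial share was 5.77%, against 3.85% in the Ccl20/Spib cells, 3.31% in the cells with neither pair and 4.10% in the Sftpc-high cells, and its part in the results was not tested. With a mitochondrial limit of 5%, 1 of the 4 cells was kept. Scgb3a2 had 1080, 908, 548 and 0 UMIs in them, in that order, and Bpifa1 had 670, 41, 130 and 140. The last cell thus entered on Bpifa1 alone. Scgb3a1, another secretoglobin of the airways, was the most abundant secretory gene, with 1647, 1782, 1600 and 680 UMIs, and was high in all 4. Reg3g, an antimicrobial lectin of mucosal surfaces, had 1012, 717, 324 and 75 UMIs, and Tff2, a trefoil factor of mucus-secreting cells, had 118, 190, 356 and 49. Both were present in every one of the cells, at different levels.

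The classical club cell product Scgb1a1 varied more, with 8, 207, 1 and 5 UMIs. The BPI-fold gene Bpifb1 had 9, 122, 26 and 0 UMIs and the mucin Muc5b 3, 19, 7 and 1. The second cell held the largest count of all 3. Cbr2, a carbonyl reductase of club cells, had 138, 167, 51 and 134 UMIs and the cytochrome P450 gene Cyp2f2 38, 25, 8 and 2. Sox2, the transcription factor of the airway lineage, was low but present in all 4 cells, with 2, 2, 8 and 1 UMIs. No Sox2 UMI was found in the 69 cells with neither pair.

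In sum over the 4 cells the 8 club/secretory markers other than Scgb3a2 and Bpifa1 made up 117094 counts per 1000000 UMIs (CPM, 114842 to 119379), against 4881 in the Ccl20/Spib cells, 2685 in the cells with neither pair and 2035 in the Sftpc-high cells. Hp, a haptoglobin gene that AT2 and other cells also transcribe, was the most abundant member in the other 3 populations, with 36920 of the 45403 UMIs in the Sftpc-high cells. The 8 goblet markers made up 8593 CPM, of which Tff2 gave 713 of 755 UMIs. The goblet genes Spdef, Foxa3, Tff1 and Clca1 were at 0 in these cells. Of the 6 basal cell markers only Trp63 was detected, with 2 UMIs, and of the 6 immune markers only Cd68, with 2. The 11 AT2 markers other than Sftpc made up 14341 CPM, against 74295 in the Sftpc-high cells, and Cxcl15 and Sftpb were the highest of them.

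One further cell carried the same airway genes without either gene of the pair. It had 458 UMIs of Scgb3a1, 240 of Cbr2, 28 of Tff2, 17 of Cyp2f2, 3 of Sox2 and 3 of Muc5b, and 203 of Ccl20 with none of Spib, so the rule placed it among the Ccl20/Spib cells. Every other Sftpc-low cell outside the 4 had at most 2 UMIs of Scgb3a1, so no cell held an intermediate count of Scgb3a1. This cell was noticed after the values were seen. It supplied 458 of the 465 Scgb3a1 UMIs and 240 of the 249 Cbr2 UMIs of the Ccl20/Spib cells.

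The 23 Ccl20/Spib cells had 6489 to 35323 UMIs with a median of 17137, so they too were deeper than the Sftpc-high cells. Ccl20 ran from 5 to 1054 UMIs with a median of 92, and 11 cells had at least 100 while 6 had fewer than 20. Spib was far lower, as is usual of a transcription factor, with 0 to 29 UMIs and a median of 1. It was at 0 in 10 of the cells, and 6 of the 8 cells with 2 or more Spib UMIs had at least 100 of Ccl20. In sum Ccl20 reached 10248 CPM (9951 to 10551) and Spib 195 (156 to 241), against 21.2 and 1.03 CPM in the Sftpc-high cells. This contrast restates the split, which used these genes, and is not a result.

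The 7 M cell markers other than Ccl20 and Spib made up 1992 CPM (1862 to 2128) in these cells, 216 in the Scgb3a2/Bpifa1 cells, 979 in the cells with neither pair and 353 in the Sftpc-high cells. The same markers made up 1165 CPM in the cells with more than 2 UMIs of the AT1 genes and 688 in stromal barcodes. They were spread unevenly over the 23 cells. Tnfaip2, an NF-κB target of M cells, was detected in 22 of 23 cells with a median of 8 UMIs, and the actin regulator Marcksl1 in 19 with a median of 6. Tnfrsf11a, the receptor through which Rankl drives M cell differentiation, was detected in 19 of 23 with a median of 1. Ccl9, a chemokine of M cell-bearing epithelium, had 233 of its 263 UMIs in a single cell. Sox8, a transcription factor of M cell maturation, had 9 UMIs in 2 cells, and Gp2, the receptor of mature M cells, was at 0 in all 23, with an exact Poisson upper bound of 8.36 CPM.

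The cell with the most Ccl20 differed from the rest in several genes. Beside its 1054 UMIs of Ccl20 and 16 of Spib it had 540 of the 916 Serpinb1a UMIs of the 23 cells, 381 of the 405 of Lyz1 and the 233 of Ccl9. The next highest values were 114 UMIs for Serpinb1a (a neutrophil protease inhibitor), 7 for Lyz1 (a lysozyme of Paneth cells) and 15 for Ccl9. Sums of these 3 genes over the 23 cells therefore describe mainly this cell. Pglyrp1, a peptidoglycan recognition protein, was more general, with 4 to 1085 UMIs and a median of 55. At least 20 UMIs were found in 20 of 23 cells, against 75 of 1843 Sftpc-high cells. That count was also reached in 3 of the 4 Scgb3a2/Bpifa1 cells and in 11 of the 69 cells with neither pair. Il4i1, an amino acid oxidase induced in inflammation, had a median of 28 UMIs and reached 10 in 16 of 23 cells, and in 105 of 1843 Sftpc-high cells. Abca13, a lipid transporter of the ABC family, reached 5 UMIs in 5 of the 23 cells and in none of the Sftpc-high cells, in which a single UMI was found. Tff2 was detected in 9 of the 23, with 92 UMIs in one cell and 28 in the cell with Scgb3a1.

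**Figure D3:**
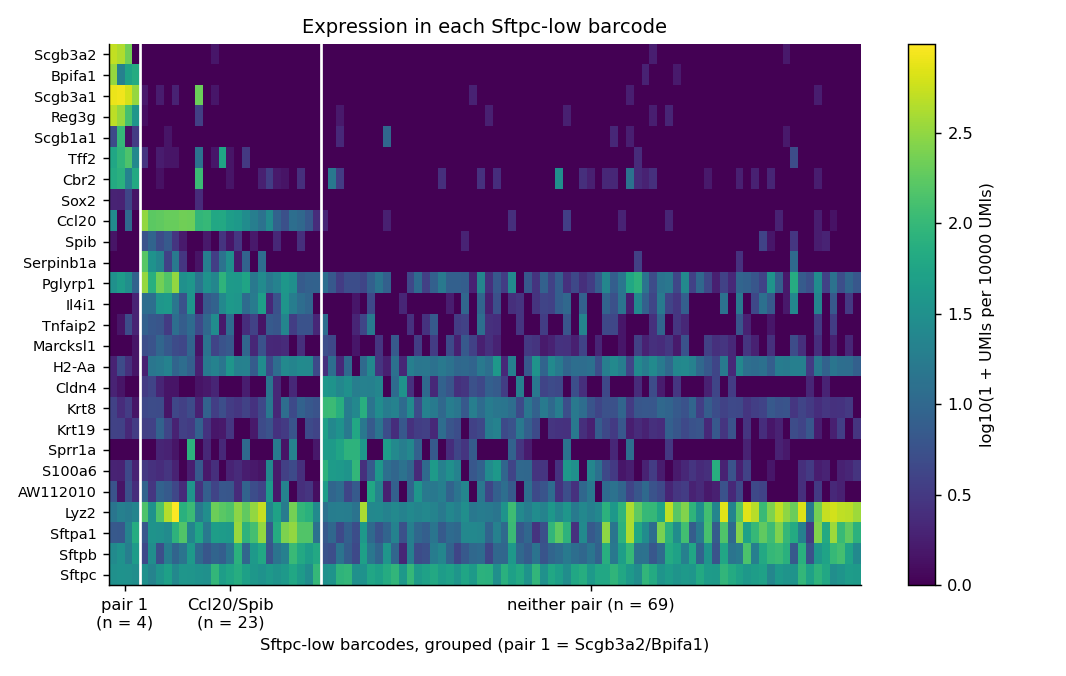
UMIs per 10000 UMIs of the cell, as log10 of 1 plus the value (color), for 26 genes (rows) in the 96 Sftpc-low cells (columns), grouped as 4 Scgb3a2/Bpifa1 cells, 23 Ccl20/Spib cells in order of the pair and 69 cells with neither pair in order of 5 DATP genes. Scgb3a1 is bright in 5 columns, Ccl20 grades down across its 23, and among the 69 the keratins and Cldn4 are bright on the left and Lyz2 on the right.

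The genes that varied most like each pair across the 96 cells were ranked by Spearman correlation of counts per 10000 UMIs over 9525 genes. The cells came from 1 library, and the correlations are a description. With Scgb3a2 plus Bpifa1 the 8 highest were Slco1a5 (0.60), Sox2 (0.60), St6gal1 (0.59), Muc5b (0.54), Lrig1 (0.53), Mall (0.51), Scgb1a1 (0.50) and Reg3g (0.49). All were sparse, and Slco1a5, Sox2 and St6gal1 were each detected in 5 of the 96 cells. With Ccl20 plus Spib the 8 highest were Pglyrp1 (0.64), H2-Oa (0.61), Serpinb1a (0.61), Il1rn (0.57), Il4i1 (0.55), the cystine transporter Slc7a11 (0.53), the cytokine receptor chain Csf2rb (0.52) and Ccl9 (0.52). H2-Oa, a chain of the modulator of peptide loading in antigen-presenting cells, was detected in 16 of 23 Ccl20/Spib cells and in 8 of 69 cells with neither pair. Il1rn, the IL-1 receptor antagonist, was detected in 10 of 23 and 2 of 69. Both genes, like Pglyrp1 above, were picked by their correlation with the pair that split the cells, so these contrasts follow from that choice. Median depth also differed, at 17137 UMIs in the Ccl20/Spib cells and 10593 in the cells with neither pair. Of the 1843 Sftpc-high cells, H2-Oa was detected in 197 and Il1rn in 15.

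The 4 Scgb3a2/Bpifa1 cells and the 23 Ccl20/Spib cells were compared by the ratio of their CPM, over 710 genes with at least 100 UMIs. At least 2-fold higher in the Scgb3a2/Bpifa1 cells were 32 genes (4.51% of those tested) and at least 2-fold lower 149 (21.0%). The whole interval lay beyond 2-fold for 22 (3.10%) and 61 (8.59%), and list counts below use this stricter rule. Apart from the pair itself, the ratio was 1527 for Reg3g (740 to 3802), 61.7 for Scgb3a1 (56.1 to 67.9), 26.5 for Tff2 (22.0 to 32.1) and 9.88 for Cbr2 (8.47 to 11.6). Cp (ceruloplasmin) was 34.0-fold higher (26.0 to 45.0), the mucosal chemokine Cxcl17 27.5-fold (17.9 to 44.0) and Retnla, a resistin-like secreted protein, 109-fold (45.5 to 344). Of the 109 Retnla UMIs 108 came from 2 of the 4 cells. Ltf (lactoferrin) was 12.8-fold higher (9.08 to 18.4), with 103 of its 120 UMIs in 1 of the 4 cells. Without the cells that carried both pairs its log2 ratio was 0.84, under 2-fold. Bpifb1 had 0 UMIs in the Ccl20/Spib cells and was at least 263-fold higher, taking 3 UMIs over the group as the limit for a count of 0. Scgb1a1 was 1110.0-fold higher (197 to 44037), against 1 UMI, with 207 of its 221 UMIs in 1 of the 4 cells. With mitochondrial genes below 5% it had 1 UMI in each group, too few for a direction.

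Lower in the Scgb3a2/Bpifa1 cells were Il4i1 (82.0-fold, 22.6 to 678), Fabp5, a fatty acid binding protein (16.4-fold, 10.4 to 27.2), and the lysozyme gene Lyz2 (10.7-fold, 9.15 to 12.6). The median Lyz2 share was 0.182% of UMIs in the 4 cells, near the 0.185% of stromal barcodes, and 1.41% in the Ccl20/Spib cells. Bcl2a1b, an NF-κB-induced survival gene, was 38.8-fold lower (6.89 to 1541) and Lyz1 80.6-fold (14.4 to 3193). Against 0 UMIs in the 4 cells, the ratio was at least 60.8 for Serpinb1a, 17.5 for Ccl9, 11.6 for Sprr1a, 9.36 for Abca13 and 8.69 for Marcks. For Sprr1a 106 of 175 UMIs of the Ccl20/Spib cells came from 1 cell.

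By list, without the genes that chose the cells, 8 of the 14 measured genes of secretoglobins and mucosal defense were higher and 3 lower, with a median log2 ratio of 1.99 against -0.36 over all 710 genes. Genes such as Reg3g, Scgb1a1 and Bpifb1 passed the minimum through the 4 cells alone, and others such as H2-Aa and Serpinb1a through the 23 alone, so the counts in both directions are partly set by that filter. The 3 were Lyz1, Lyz2 and Chil1. Of the 7 MHC class II genes 6 were measured and all 6 were lower (median -2.85), among them H2-Eb1 (15.7-fold, 6.68 to 48.7), H2-Aa (8.31-fold, 5.00 to 14.9) and the invariant chain Cd74 (2.78-fold, 2.46 to 3.16). H2-Aa had 15 UMIs over the 4 cells and a median of 22 UMIs in each Ccl20/Spib cell. Of the 8 measured chemokines and cytokines other than Ccl20 4 were lower and Cxcl17 alone was higher. Of the 5 measured genes of the IL-1 and NF-κB response 3 were lower, Icam1 (7.08-fold, 4.32 to 12.5), Nfkbia (3.21-fold, 2.16 to 4.97) and Tnfaip2 (4.52-fold, 2.60 to 8.59). Lcn2 (lipocalin 2), also on that list, was 2.05-fold higher (1.93 to 2.18), short of the stricter rule. Its median share was 1.53% of UMIs in the 4 cells, 0.588% in the Ccl20/Spib cells and 0.647% in stromal barcodes. Of the 9 measured surfactant genes other than Sftpc 5 were lower, whereas Sftpb differed little (1.12-fold, 0.976 to 1.28).

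Against the Sftpc-high cells, the Ccl20/Spib cells had 8.52% of 9553 genes at least 2-fold higher and 12.7% lower. They had 249 of 9553 genes higher (2.61%) and 79 lower (0.827%) with the whole interval beyond 2-fold, the comparison cells being the same 1843 as for the other groups below. Without Ccl20 and Spib, which chose the cells, 7 of the 9 measured M cell genes were higher, with a median log2 ratio of 2.36 against 0.00 over all genes. Ccl9, with 263 UMIs against 27, passed the minimum through the Ccl20/Spib cells alone, and 233 of the 263 lay in 1 cell. This count is therefore partly set by the filter. Tnfrsf11b, a decoy receptor for Rankl, was 19.3-fold higher (13.2 to 27.8), Tnfaip2 10.9-fold (9.54 to 12.3), Tnfrsf11a 6.05-fold (4.28 to 8.35) and Marcksl1 5.14-fold (4.37 to 6.01). Tnfrsf11b was not particular to these cells, being 10.8-fold higher (7.38 to 15.5) in the cells with neither pair too. Anxa5, also on the list, differed by 1.11-fold (0.899 to 1.36). Of the 19 measured chemokines and cytokines other than Ccl20 7 were higher and 1 lower. The higher ones included Cxcl2 (3.87-fold, 3.12 to 4.74) and Cxcl5 (6.08-fold, 5.64 to 6.55). For Cxcl5 1 cell gave 359 of 779 UMIs. Csf3 was among the 7, with 26 of its 28 UMIs in 1 cell. Of the 16 measured IL-1 and NF-κB response genes 7 were higher and Lcn2 lower (2.31-fold, 2.24 to 2.39). The median Lcn2 share in the Ccl20/Spib cells, 0.588% of UMIs, lay below the 0.647% of stromal barcodes, against 1.64% in the Sftpc-high cells. None of the 7 MHC class II genes passed in either direction. Lipid synthesis genes were lower in 4 of 13 cases, with Fasn 5.65-fold (4.24 to 7.69) and Scd1 5.26-fold (4.80 to 5.79).

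The 69 cells with neither pair had a median of 10593 UMIs, close to the 11553 of the Sftpc-high cells. Ccl20 had 13 UMIs over all 69, Tff2 5, Scgb3a1 3, and Scgb3a2 and Bpifa1 2 each. At least 2-fold higher than in the Sftpc-high cells were 5.01% of 9572 genes and lower 4.36%. Whole intervals beyond 2-fold were found for 119 of 9572 genes higher (1.24%) and 25 lower (0.261%) than in the Sftpc-high cells. Of the 14 genes of the DATP list 11 were higher, with a median log2 ratio of 2.06 against 0.15 over all genes. Cldn4, a claudin of tight junctions, was 15.1-fold higher (13.4 to 16.9), the cornified envelope gene Sprr1a 12.1-fold (11 to 13.2, with 559 of 697 UMIs in 6 cells and none in 43), AW112010 7.69-fold (6.98 to 8.45), Krt19 5.93-fold (5.43 to 6.48) and Lgals3 5.26-fold (4.93 to 5.6). Ccnd1, Mdm2 and Cldn18 of that list did not pass. The 3 measured keratins other than Krt18 passed, with Krt8 3.45-fold higher (3.24 to 3.67).

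Outside the list, genes among the 12 highest in these 69 cells included Ubd, a ubiquitin-like protein (74.7-fold, 47.8 to 120, with 56 of 74 UMIs in 1 cell), tropomyosin 2 (Tpm2, 22.4-fold, 18.1 to 27.8), S100a6 (11.7-fold, 10.9 to 12.5), tissue factor (F3, 10.7-fold, 8.98 to 12.7) and the integrin chain Itgb6 (9.79-fold, 8.07 to 11.8). Ubd had 28 UMIs in the Sftpc-high cells and met the minimum only with the counts of the 69 cells, so its place is partly set by that filter. Of the 16 glycolysis and hypoxia genes 5 were higher, among them the lactate transporter Slc16a3 (6.52-fold, 5.06 to 8.33). Of the 8 measured M cell genes other than the split genes 3 were higher. Of the 14 measured genes of secretoglobins and mucosal defense other than the split genes none was higher and 2 were lower, Lyz2 and Scgb3a1. In the Sftpc-high cells 712 of 1529 Scgb3a1 UMIs came from 1 barcode. Surfactant genes other than Sftpc were lower in 2 of 10 cases. Sftpb was 2.82-fold lower (2.71 to 2.93), whereas Sftpa1 was 1.67-fold lower (1.63 to 1.72). Tff1 had 33 UMIs, all in a single cell.

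The 69 cells were not uniform. Cldn4, Krt8, Ndrg1, Sprr1a and AW112010 together made up 0 to 2.32% of UMIs, with a median of 0.209%, against a median of 0.0508% in the Sftpc-high cells. They reached 0.1% in 45 of 69 cells (65.2%, 52.8 to 76.3), in 12 of 23 Ccl20/Spib cells, in none of the 4 Scgb3a2/Bpifa1 cells and in 242 of 1843 Sftpc-high cells (13.1%, 11.6 to 14.8). Among epithelial cells of the library with more than 2 UMIs of the 3 AT1 genes the share was 242 of 341 (71.0%, 65.8 to 75.7). Lyz2, abundant in AT2 cells, ran the other way in the 69 cells. It reached 1% of UMIs in 5 of the 45 cells with the DATP genes at 0.1% or more and in 19 of the other 24, with medians of 0.239% and 2.60%. In the Ccl20/Spib cells the counts were alike, at 7 of the 12 with the DATP genes at 0.1% or more and 6 of the other 11. Stromal barcodes had a median of 0.185% of Lyz2, against 0.239% in the 45 cells. The Spearman correlation between both shares was -0.70 over the 69 cells and -0.38 over the 1843 Sftpc-high cells, given as a description of shares of the same total. This division was made after the values were seen.

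**Figure D4:**
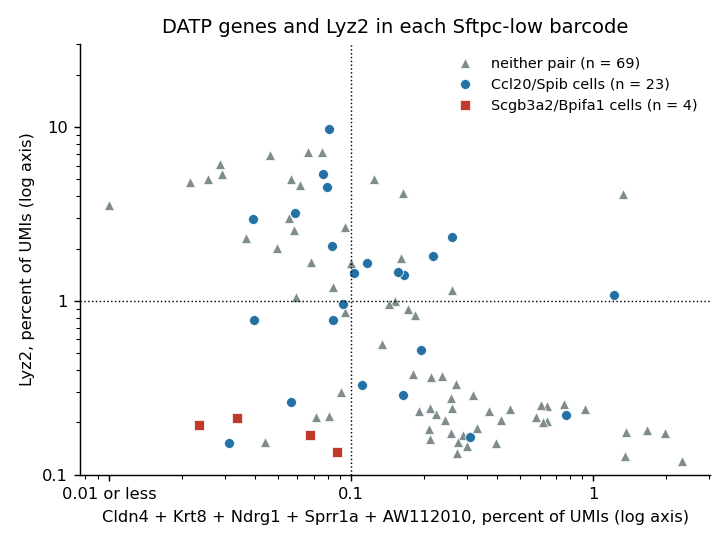
Share of UMIs from 5 DATP genes (x axis, percent, log scale, values of 0.01 or less drawn at the edge) and from Lyz2 (y axis, percent, log scale) in each of the 96 Sftpc-low cells by group, with 0.1% and 1% dotted. Of the 69 cells with neither pair, 5 of the 45 at or beyond 0.1% and 19 of the 24 below it have Lyz2 at 1% or more.

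Over all of them, the 96 Sftpc-low cells had 487 of 9635 genes at least 2-fold higher than the Sftpc-high cells (5.05%) and 402 lower (4.17%), and with whole intervals beyond 2-fold 192 (1.99%) and 54 (0.560%). Since Sftpc chose both groups these counts are a description. The highest genes came mostly from the small groups described above. They were Abca13, Scgb3a2, Serpinb1a, Ccl20, Tff2, Reg3g, Ccl9, Bpifb1, the mitotic gene Ube2c, Scgb3a1, Spib and Ubd. Of the 2539 Scgb3a2 UMIs of the Sftpc-low cells 2536 came from the 4 Scgb3a2/Bpifa1 cells, as did 2128 of the 2140 of Reg3g.

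The 12 genes ranked lowest were led by Sftpc itself (15.1-fold, 14.8 to 15.5). The others included Sfta2, a surfactant-associated protein (4.21-fold, 3.62 to 4.91), the ribonuclease genes Ang (5.44-fold, 4.39 to 6.84) and Rnase4 (4.26-fold, 3.70 to 4.93), and the complement genes Hc (5.01-fold, 3.86 to 6.63) and C6 (1 UMI against 456). The fatty acid genes Fasn (3.51-fold, 3.08 to 4.02), Elovl1 (3.45-fold, 3.15 to 3.79) and Acoxl (7.35-fold, 3.72 to 17.1) were lower too, as were Prmt8 (12.6-fold, 4.89 to 46.2), Gjb1 (4.78-fold, 2.97 to 8.23) and Ivl (1 UMI against 338). Not every surfactant gene followed Sftpc. Of the 10 measured genes of surfactant and lamellar bodies other than Sftpc 3 were lower, with a median log2 ratio of -0.74 against 0.11 over all genes. Sftpb was 2.98-fold lower (2.88 to 3.07) and Sftpa1 1.65-fold (1.61 to 1.68), whereas Sftpd was 1.17-fold higher (1.15 to 1.2). Lipid synthesis genes were lower in 3 of 13 cases (median -0.71). Without the genes of the selection and the split, higher were 6 of 16 measured genes of secretoglobins and mucosal defense, 8 of 9 M cell genes, 10 of 14 DATP genes, 7 of 19 chemokines and cytokines, 5 of 16 IL-1 and NF-κB response genes, 3 of 3 keratins and 2 of 16 glycolysis and hypoxia genes. Bpifb1 and Ccl9 passed the minimum through the Sftpc-low cells alone, with 122 and 233 UMIs in 1 cell each, so these counts too are partly set by the filter. Lyz2 (2.35-fold, 2.32 to 2.39) was the one lower gene of the first of these lists and Cxcl15 that of the chemokines.

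The 6 AT2 regulators were measured and none passed the stricter rule, with Etv5 2.26-fold lower (1.71 to 3.05) and Nkx2-1 1.25-fold lower (1.11 to 1.41). Of the 13 measured genes of MHC class I and interferon and the 7 of MHC class II none passed in either direction. Of the 11 measured airway transcription factors none passed, and Sox2, with 16 UMIs, was below the minimum of 100 UMIs over both groups. Other lists, Notch genes (4 measured), claudins and junctions other than the selecting genes (5, with Cldn4 higher) and stress-response genes (12, with 2 higher), gave at most 2 calls. Of the 11 measured ion and water transport genes 1 was higher, Aqp4, and of the 7 measured club cell detoxification genes 2, Cbr2 and Gsto1.

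**Figure D5:**
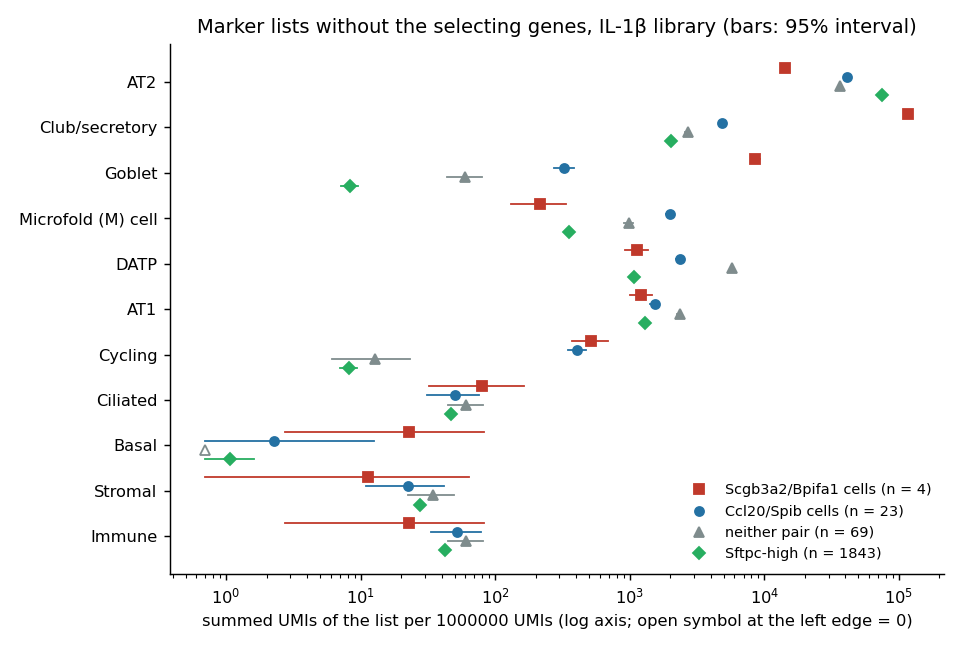
Summed UMIs per 1000000 UMIs (x axis, log scale) of 11 marker lists (rows), without the genes that selected or split the cells, in the 3 groups of Sftpc-low cells and in the Sftpc-high cells, with 95% counting intervals as bars and open symbols at the left edge for 0. Club/secretory and goblet markers are highest in the 4 Scgb3a2/Bpifa1 cells, M cell markers in the 23 Ccl20/Spib cells, DATP markers in the 69 cells with neither pair and AT2 markers in the Sftpc-high cells.

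Over the 96 cells the 4 stromal markers that were not used to choose cells made up 28.8 CPM, against 27.8 in the Sftpc-high cells and 1408 in stromal barcodes, and 11 of the 96 cells had more than 10 UMIs of the 4 stromal genes of the rule. The 6 immune markers made up 55.4 CPM, of which Cd68 gave 71 of 73 UMIs, and 3 of the 6 were at 0. The 5 neuroendocrine markers were all at 0 and the 3 endothelial ones had 2 UMIs. Of the 6 ciliated markers 1 was at 0 and the sum was 58.4 CPM. The 5 tuft cell markers made up 73.6 CPM, nearly all of it Dclk1, with 3 at 0, and the 3 ionocyte markers 38.7 CPM, 49 of 51 UMIs being Cftr. The 9 AT1 markers other than Hopx, Rtkn2 and Akap5 made up 1997 CPM, led by Ager, against 1291 in the Sftpc-high cells. These markers made up 3008 CPM in stromal barcodes and 8767 in the cells with more than 2 UMIs of the AT1 genes. What share of the differences above such RNA made up was not tested.

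The Sftpc-low cells with cycling genes all carried one of the pairs. At least 5 UMIs of 6 cycling genes were found in 1 of the 4 Scgb3a2/Bpifa1 cells (44 UMIs), in 3 of the 23 Ccl20/Spib cells (72, 7 and 95 UMIs), in 0 of the 69 cells with neither pair, which allows up to 4.35%, and in 3 of 1843 Sftpc-high cells (0.163%, 0.0336 to 0.475). In the control library 52 of 1029 epithelial barcodes reached that count (5.05%, 3.80 to 6.57). The 2 cells with the most cycling UMIs were also among the deepest, with 35259 and 35323 UMIs, and the one with 95 had 5 UMIs of Ccl20, the lowest count that the rule admitted. Doublets were not removed, and their part in the pairs, the depth and the cycling counts was not tested.

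Single UMIs were also common in cells that should lack these genes. A UMI of Scgb3a1 was found in 105 of 650 stromal barcodes (16.2%) and in 206 of 1843 Sftpc-high cells (11.2%), at median depths of 12731 and 11553 UMIs, and in 3 of 69 cells with neither pair (4.35%), and shares at or below the stromal one are not read as expression here. For Ccl20 the shares were 12% of stromal barcodes, 9.17% of Sftpc-high cells and 13% of cells with neither pair. The counts of 5 or more on which the groups rest were rare in stromal barcodes, where 1 of 650 reached 5 UMIs of the first pair and 7 of 650 those of the second.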

How the data were processed

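Lung organoid cells were profiled by droplet single-cell RNA sequencing in 2 libraries, control and IL-1β. The authors deposited raw UMI counts per gene and barcode from Cell Ranger with Scanpy 1.3.6 named for analysis, and the processing notes list the builds GRCm38 and mm9. No cell annotation was used here. Totals were 33965848 UMIs in 2101 control barcodes and 41220175 in 3066 IL-1β barcodes. Python 3.11.15, numpy 2.4.6, scipy 1.17.1, pandas 2.3.3 and matplotlib 3.10.9 were used. Counts were summed over barcodes of a group and compared as CPM ratios, with no pseudocount, for genes with at least 100 UMIs over both groups. Intervals were exact at 95% (Poisson for CPM, conditional binomial for ratios, Clopper-Pearson for shares), and a count of 0 was set to 3 for bounds. The calculation was tested on simulated data. With 1 library per condition no test across replicates was possible. Named genes were those of the selection and split, list members, the 12 highest and 12 lowest of the other comparisons by the interval limit nearest 1 (mitochondrial, ribosomal protein, Gm-number and Rik genes left out) and the 8 best correlated with each pair. Doublets were not removed. The members, the gene lists and the split were chosen with earlier results of these data known. The comparisons of the Ccl20/Spib cells and of the cells with neither pair with the Sftpc-high cells, and the genes named in them outside the lists, were chosen after values were seen. The processing was varied in 16 ways, and in others chosen after the data were seen. One gene that the naming rule selected is not reported here.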

Additional observations from a re-analysis of the deposited data

Results flagged for a closer look

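The marker pairs also occurred outside the Sftpc-low cells. Over all such barcodes, stromal ones included, the counting intervals of their shares overlapped those of the control library, with 1 library each. At least 5 UMIs of Scgb3a2 plus Bpifa1 were found in 4 of the 2970 other IL-1β barcodes (0.135%, 0.0367 to 0.344) and in 0 of 2101 control barcodes, which allows up to 0.143%. Of the 4, 3 were Sftpc-high cells with 145, 1026 and 44 UMIs of the pair and Sftpc at 4.30%, 4.22% and 1.10%, and 1 was a stromal barcode with 24. At least 5 UMIs of Ccl20 plus Spib were found in 28 of the 2970 other IL-1β barcodes (0.943%, 0.627 to 1.36) and in 12 of 2101 control barcodes (0.571%, 0.295 to 0.996), 11 of them stromal. Among stromal barcodes the shares were 1.08% and 1.04%, so the overlap for this pair rests partly on them. Among Sftpc-high cells the shares were 0.705% (13 of 1843) and 0.119% (1 of 838), with overlapping intervals. Over all epithelial barcodes the intervals did not overlap, at 1.93% (1.42 to 2.57) in the IL-1β library and 0.0972% (0.00246 to 0.54) in the control. That IL-1β share counts 46 barcodes, of which 25 were Sftpc-low cells. Of the 28, 13 were Sftpc-high cells, 6 had more than 2 UMIs of the AT1 genes and 7 were stromal. The part of doublets in these barcodes was not tested.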

How the results depend on the processing

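No paired analysis was possible because each condition has 1 library, and for the same reason no replicate could be left out. The share of IL-1β epithelial barcodes that were Sftpc-low was 2.44% with Sftpc below 0.5%, 6.51% below 2%, 3.19% with mitochondrial genes below 5%, 2.35% with the AT1 genes at 0, 5% with at most 5 UMIs of them and 5.17% with the epithelial sum more than 3 times the stromal sum. Genes at least 2-fold higher than in the Sftpc-high cells numbered 894 at a minimum of 30 UMIs and 233 at 300, and lower 628 and 182, with 205 lower at Sftpc below 2%. Between Scgb3a2/Bpifa1 and Ccl20/Spib cells 112 and 15 genes were higher and 696 and 47 lower at these minimums, with 65 lower at AT1 genes of 0 and 95 without the 5% deepest barcodes. The minimum sets how many sparse genes are counted, and otherwise the cause was not tested. Of 742 pairs of a named gene and an alternative, over 48 genes, 740 kept their direction, 1 of them falling under 2-fold (Ltf), and 2 reversed. A further 2 pairs, not among the 742, had too few UMIs for one, Scgb1a1 with 1 against 1 UMI at mitochondrial genes below 5% and Ccl9 with 0 against 5 at AT1 genes of 0, both between Scgb3a2/Bpifa1 and Ccl20/Spib cells. The reversed ones were log2 ratios over the Sftpc-high cells without the Scgb3a2/Bpifa1 cells, an alternative chosen after seeing the data, at -0.80 for Scgb3a2 and -0.042 for Reg3g. That for Scgb3a2 is fixed by leaving out cells chosen on this gene from 1 group only. With mitochondrial genes below 5%, 1 of the 76 Sftpc-low cells was a Scgb3a2/Bpifa1 cell.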
